A study of Mus musculus with 20 samples.

Results

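Brdt, Brd2, Brd3, Brwd1, Chd5 and Kdm3a encode proteins that read, modify or remodel chromatin. Brdt, Brwd1, Chd5 and Kdm3a are known for roles in spermatids. They were taken by gene symbol from a table of 23235 genes, so the set is 6 of 23235 genes, and all 6 were among the 12956 genes tested. Chd5 met the filter on low values (at least 1 FPKM in at least 2 libraries) only through its meiosis II libraries. FPKM scales a gene's fragments by transcript length and library total, so levels of different genes can be set side by side.

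The study asked what the loss of Cxxc1, a CpG-binding subunit of H3K4 methyltransferase complexes, does to H3K4 trimethylation and transcripts during male meiosis. RNA was measured in spermatocytes sorted from adult mouse testes, 500 cells a library, by the full-length, oligo-dT primed Smart-seq2 method. The 12 RNA libraries form 6 groups of 2, namely WT and Cxxc1-null pachytene, diplotene and meiosis II spermatocytes, all on a C57BL/6 background with no treatment named. The 8 H3K4me3 ChIP libraries of the series were not analysed here. The allele, its driver and the age of the mice beyond adult are not given in the sources used here. Nothing in the labels ties the 2 libraries of each group to different animals; the p-values therefore reflect how far libraries differ from each other, a spread that may be technical.

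The 12 libraries had between 9838 and 11624 genes at 1 FPKM or more, and the number of sequenced fragments is unknown. Cxxc1 was lower in both Cxxc1-null libraries than in both WT libraries at each stage, with group means of 14.5 and 9.38 FPKM in pachytene, 15.6 and 8.93 FPKM in diplotene, and 12.7 and 2.56 FPKM in meiosis II. The summed FPKM of 7 spermatocyte markers was 7619 to 14213 in every library, of which Ldhc alone made up 6402 to 10502. Without Ldhc the sum was 2411 to 4455 in pachytene and 897 to 1352 in meiosis II. That of 9 round spermatid markers was 1417 to 2218 in pachytene and 173 to 843 in diplotene. In meiosis II the spermatid sum was 7433 and 10430 in WT and 2181 and 4564 in Cxxc1-null libraries, with all 9 markers at 1 FPKM or more in all 4. Tnp1, Tnp2, Prm1 and Prm2 carry the difference in that sum: the other 5 markers summed to 1413 and 1070 in WT and 1059 and 1667 in Cxxc1-null libraries. Of the 9 markers 0 were called between genotypes in meiosis II, with 3 higher and 6 lower in Cxxc1-null cells and a median difference of -0.22 on the log2(FPKM + 1) scale. In pachytene the other 5 markers summed to 67.0 and 53.2 FPKM in WT and 169 and 180 FPKM in Cxxc1-null libraries. In diplotene they summed to 43.5 and 64.2 FPKM in WT and 80.4 and 273 FPKM in Cxxc1-null libraries. Over the stages 3 of the 9 markers were called higher and 1 lower, where 16.7% of all genes were called. Leaving out Tnp1, Tnp2, Prm1 and Prm2 was chosen after the values were seen. The sum of 9 Sertoli markers was 210.3 to 288 FPKM in meiosis II and 6.88 to 27.2 FPKM in the other libraries. WT pachytene replicate 2 and Cxxc1-null diplotene replicate 2 stood apart from their groups in an earlier analysis of these data. That was not tested here, and a group of 2 libraries cannot show which of the 2 departs.

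Bromodomains are small folds that bind acetylated lysines, mostly on histone tails. Brdt, Brd2 and Brd3 belong to the BET family, whose members carry a pair of bromodomains and link acetylated chromatin to transcription; Brdt is the member made almost only in the testis and is also known for compacting acetylated chromatin in spermatids. Brwd1 joins WD40 repeats to bromodomains, Chd5 is an ATP-dependent remodeller of the chromodomain helicase family that acts in the exchange of histones for protamines, and Kdm3a removes methyl groups from histone H3 lysine 9 and is known to activate Tnp1 and Prm1.

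Because CXXC1 is known to bind unmethylated CpG dinucleotides, the RefSeq promoters of the 6 genes are described first. The promoter table (build GRCm38.p6, not the build of the expression values) held 11 promoters for the 6 genes, each of 300 bases from 250 before to 50 after a transcript start. A promoter in the whole table of 32851 held a median of 7 CpG, with quartiles at 3 and 20. Taking for each gene the promoter with the most CpG, the count was 23 in Brdt, 32 in Brd2, 46 in Brd3, 52 in Brwd1, 33 in Chd5 and 40 in Kdm3a. Brdt was the lowest of these, with 78.5% of all promoters holding fewer, and Brwd1 the highest, with 99.4% holding fewer. Brd2 had other promoters with 24 and 14 CpG, Chd5 another with 32, and Kdm3a others with 24 and 0. The 2 Chd5 windows overlap almost wholly, with starts at 152338404 and 152338401. The Kdm3a windows with 40 and 24 CpG overlap in part, so some bases are counted more than once among the 11.

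**Figure D1:**
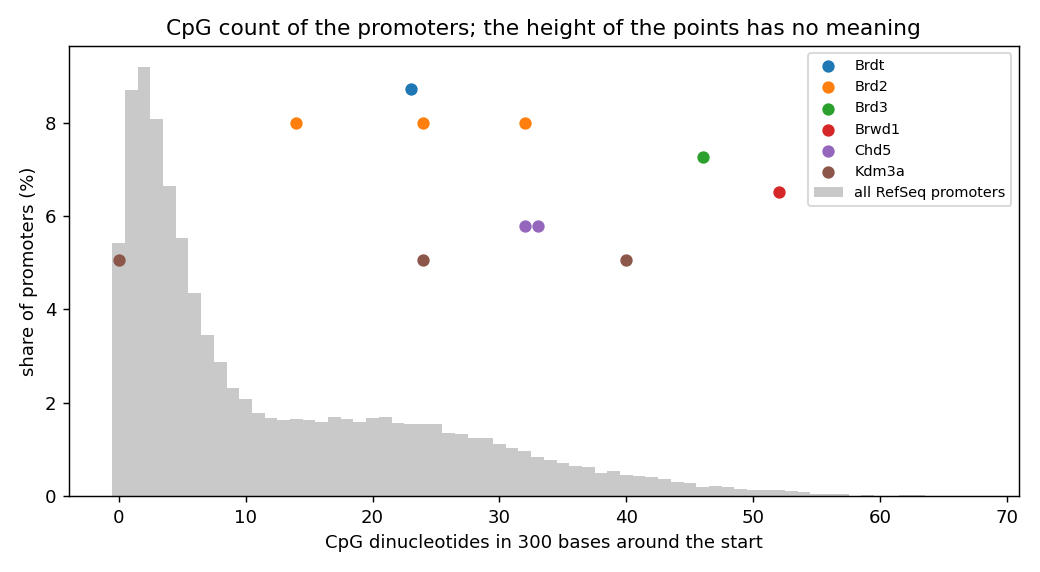
CpG dinucleotides in the 300-base RefSeq promoters. The grey bars give the share of all 32851 promoters with each count (vertical axis, percent) and the coloured points mark the 11 promoters of the 6 genes, whose height has no meaning. Of the 11 points, all but a Brd2 promoter with 14 CpG and a Kdm3a promoter with 0 lie above the upper quartile of 20.

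The 250 bases before the start, at the promoter with the most CpG, are printed for the 3 BET genes of the set, which moved in different directions through meiosis, and for Chd5, which was high at 1 stage only. Each is written 5′ to 3′ on the gene's strand with CpG in capitals. They lie at chr5:107330944-107331193 (plus strand, 16 CpG) for Brdt, chr17:34122608-34122857 (minus strand, 27 CpG) for Brd2, chr2:27475399-27475648 (minus strand, 37 CpG) for Brd3 and chr4:152338404-152338653 (plus strand, 22 CpG) for Chd5.
Brdt: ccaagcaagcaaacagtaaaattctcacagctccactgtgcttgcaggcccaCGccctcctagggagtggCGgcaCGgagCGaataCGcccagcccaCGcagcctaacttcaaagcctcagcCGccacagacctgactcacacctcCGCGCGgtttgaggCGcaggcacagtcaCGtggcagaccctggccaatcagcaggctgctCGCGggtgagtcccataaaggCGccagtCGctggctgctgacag
Brd2: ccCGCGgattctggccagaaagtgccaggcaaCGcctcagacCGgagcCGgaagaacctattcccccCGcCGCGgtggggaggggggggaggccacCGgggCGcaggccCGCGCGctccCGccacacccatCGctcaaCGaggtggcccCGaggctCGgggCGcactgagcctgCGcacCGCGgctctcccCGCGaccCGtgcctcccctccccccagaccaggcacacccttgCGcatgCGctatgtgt
Brd3: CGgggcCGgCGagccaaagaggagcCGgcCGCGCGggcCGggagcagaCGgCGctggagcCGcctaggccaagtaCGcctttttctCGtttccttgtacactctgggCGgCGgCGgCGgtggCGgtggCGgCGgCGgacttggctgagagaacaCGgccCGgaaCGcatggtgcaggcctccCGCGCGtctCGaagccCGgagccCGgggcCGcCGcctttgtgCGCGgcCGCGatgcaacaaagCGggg
Chd5: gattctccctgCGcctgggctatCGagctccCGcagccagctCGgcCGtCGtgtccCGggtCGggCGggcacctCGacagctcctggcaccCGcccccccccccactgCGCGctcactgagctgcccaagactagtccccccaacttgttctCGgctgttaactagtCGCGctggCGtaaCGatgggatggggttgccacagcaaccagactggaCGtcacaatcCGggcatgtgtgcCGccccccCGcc

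Exact matches to 5 motifs were counted on both strands of the 300 bases. The E-box CACGTG, a palindrome, was found in the Brdt promoter and in none of the other 10, and 7.15% of all promoters hold it. GGGCGG, a GC box, was found in 8 of the 11 promoters, in every gene but Brdt, and 35.7% of all promoters hold it. The 8 include the overlapping windows of Chd5 and Kdm3a. TATAAA, TGACGTCA and TGACGTAA, which 13.6%, 1.79% and 0.499% of all promoters hold, were not found in these windows. Methylation and H3K4me3 at these promoters were not analysed here.

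Brdt had the highest FPKM of the 6 genes in all 12 libraries and was lower at the later stages. It was 187 and 145 FPKM in the WT pachytene libraries, 162 and 116 in WT diplotene, and 111 and 125 in WT meiosis II. In Cxxc1-null libraries it was 138 and 173 FPKM in pachytene, 118 and 111 in diplotene, and 78.6 and 99.4 in meiosis II. Within each genotype both meiosis II libraries lay below both pachytene libraries. From pachytene to meiosis II Brdt fell in the Cxxc1-null groups, with a log2 difference of -0.80 ± 0.24 (SE, on the log2(FPKM + 1) scale used for every difference, n = 2 per group) and a limma adjusted p of 0.0143, while the WT value of -0.48 ± 0.24 (limma adjusted p = 0.0983) did not pass the test. That Cxxc1-null call was lost without meiosis II replicate 1 (-0.63, limma adjusted p = 0.0951) and without pachytene replicate 2 (-0.63, limma adjusted p = 0.101).

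Between genotypes Brdt differed by -0.09 ± 0.24 in pachytene, -0.25 ± 0.24 in diplotene and -0.41 ± 0.24 in meiosis II, with limma adjusted p of 0.932, 0.726 and 0.309. The genotypes overlapped in pachytene and diplotene, and both WT libraries lay above both Cxxc1-null libraries in meiosis II. The mean over stages, -0.25, had a 95% interval of -0.55 to 0.05. The RefSeq annotation places the non-coding Gm17202 and the pseudogene Gm8152 over the Brdt locus; the expression table has no row for either, and without strand their fragments could not be told apart from those of Brdt.

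Brd2, a BET gene expressed in many tissues, went the opposite way through meiosis and was the 1 gene of the 6 with a genotype call. It was 27.8 and 53.3 FPKM in WT pachytene, 54.9 and 73.0 in WT diplotene, and 91.2 and 109 in WT meiosis II. The Cxxc1-null libraries had 20.9 and 23.7 FPKM in pachytene, 38.6 and 48.2 in diplotene, and 63.9 and 56.0 in meiosis II. Both WT libraries lay above both Cxxc1-null libraries at each stage, and in each genotype the 3 stages did not overlap.

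The Cxxc1-null mean of Brd2 was 54.9% of the WT mean in pachytene, 67.8% in diplotene and 60.0% in meiosis II. The corresponding log2 differences, -0.77 ± 0.30, -0.54 ± 0.30 and -0.73 ± 0.30, had limma adjusted p of 0.373, 0.474 and 0.151 and did not pass the test within a stage. Averaged over the stages Brd2 fell by 0.68 ± 0.17 on the log2 scale (limma adjusted p = 0.0245, lower in 6 of 6 Cxxc1-null libraries). The call rested on several libraries. The limma adjusted p was 0.0658 without Cxxc1-null pachytene replicate 1, 0.0518 without Cxxc1-null pachytene replicate 2, 0.0684 without WT diplotene replicate 2 and 0.0529 without Cxxc1-null diplotene replicate 1. Without WT meiosis II replicate 2 it was 0.0658, and without Cxxc1-null meiosis II replicate 2 it was 0.0675. It was also 0.0614 with no expression filter and 0.159 when libraries were joined by genotype and replicate number, and the difference itself ranged from -0.83 to -0.53 over 22 alternatives. The pachytene difference was -1.23 without WT pachytene replicate 1 and -0.31 without WT pachytene replicate 2, the library that stood apart. RefSeq places H2-DMa, a class II histocompatibility gene with 0.493 to 12.1 FPKM, partly over the Brd2 locus, so Brd2 fragments are uncertain to that extent.

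From pachytene to meiosis II Brd2 rose by 1.35 ± 0.30 in WT and by 1.39 ± 0.30 in Cxxc1-null cells (limma adjusted p = 0.00259 and 0.00252), or 2.46-fold and 2.69-fold in mean FPKM, and both calls held in 22 of 22 alternatives. The step from pachytene to diplotene passed the test in Cxxc1-null cells (0.93 ± 0.30, limma adjusted p = 0.0402) and not in WT (0.70 ± 0.30, limma adjusted p = 0.105). The Cxxc1-null call was lost in 10 of 22 alternatives, among them without any 1 of the 4 Cxxc1-null pachytene and diplotene libraries (limma adjusted p = 0.082 to 0.167) and without any 1 of the 4 meiosis II libraries (limma adjusted p = 0.0507 to 0.0536). The WT step passed without WT pachytene replicate 2 (1.16, limma adjusted p = 0.0101) and with a common median (0.91, limma adjusted p = 0.0331). From WT diplotene to meiosis II Brd2 did not pass (0.65 ± 0.30, limma adjusted p = 0.102), nor did it in 19 of 22 alternatives. The 3 in which it passed each left out a WT pachytene library, which is not part of this step and did not move the difference of 0.65.

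Brd3, also a widely expressed BET gene, had the same direction as Brd2 through meiosis. Its FPKM was 17.5 and 32.5 in WT pachytene, 29.2 and 45.2 in WT diplotene, and 44.6 and 55.7 in WT meiosis II. The Cxxc1-null libraries had 15.5 and 17.6, then 29.2 and 34.8, then 48.7 and 32.4 FPKM. The genotypes overlapped at every stage. Brd3 rose from pachytene to meiosis II by 1.03 ± 0.33 in WT and 1.22 ± 0.33 in Cxxc1-null cells, with limma adjusted p of 0.0186 and 0.00903. The WT call was lost without WT pachytene replicate 1 (0.60, limma adjusted p = 0.148), without WT meiosis II replicate 2 (0.87, limma adjusted p = 0.104) and with no expression filter (limma adjusted p = 0.0542). The Cxxc1-null call was lost without Cxxc1-null meiosis II replicate 1 (limma adjusted p = 0.0742) and without Cxxc1-null pachytene replicate 1 (limma adjusted p = 0.0512). No genotype difference of Brd3 passed the test, with a mean over stages of -0.34 and a 95% interval of -0.76 to 0.09. Over the 12 libraries, which share stages and scaling, Brd2 and Brd3 had a Pearson r of 0.959, the highest of the 15 pairs among the 6 genes.

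**Figure D2:**
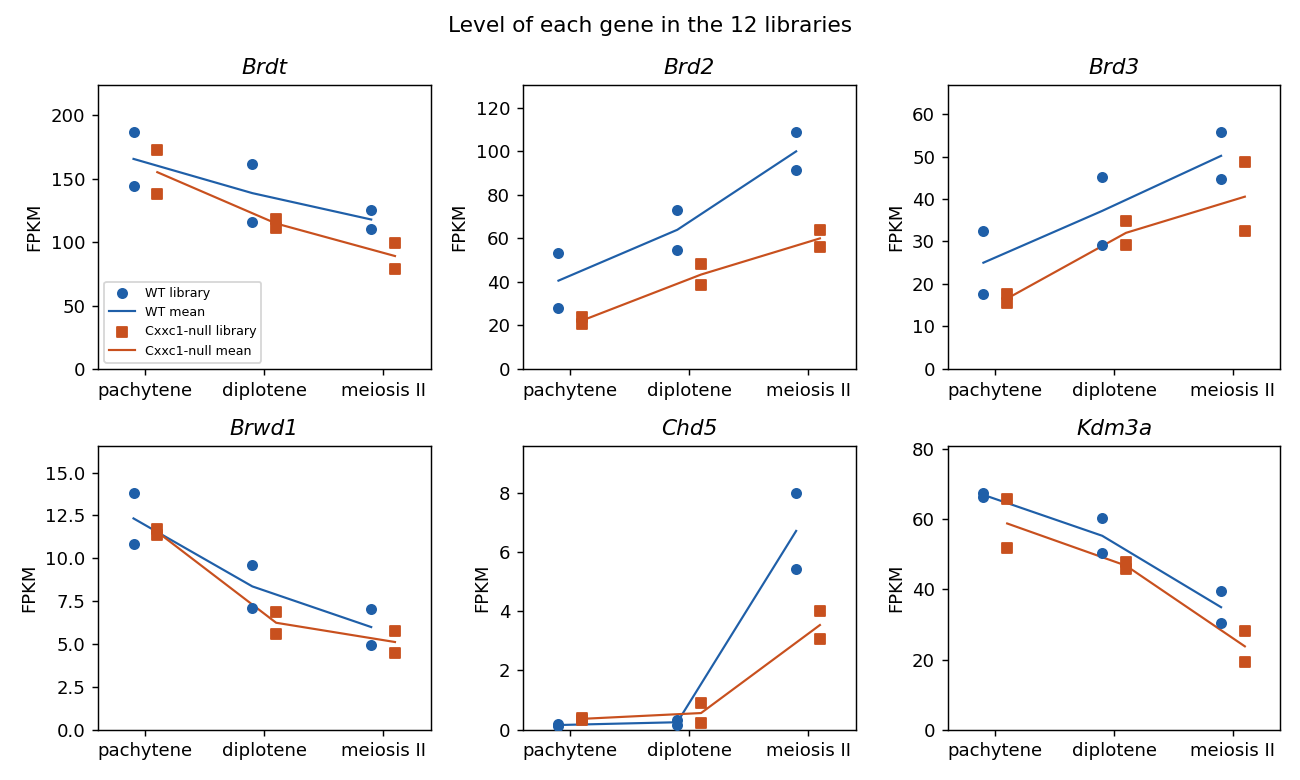
FPKM of the 6 genes (vertical axes, linear and starting at 0) in pachytene, diplotene and meiosis II; blue circles are WT libraries, orange squares Cxxc1-null libraries, and lines join the means of 2 libraries. Brdt, Brwd1 and Kdm3a have lower means in meiosis II than in pachytene in both genotypes, Brd2, Brd3 and Chd5 higher ones, and Brd2 and Kdm3a have both Cxxc1-null libraries below both WT libraries at each stage.

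As a share of the summed FPKM of Brdt, Brd2 and Brd3, Brdt was 80.5% and 62.8% in WT pachytene and 44.9% and 43.2% in WT meiosis II. In Cxxc1-null cells it was 79.1% and 80.7% in pachytene and 41.1% and 52.9% in meiosis II. Brd2 made up 12.0% and 23.1% in WT pachytene and 37.0% and 37.6% in WT meiosis II, against 12.0% and 11.1% and then 33.4% and 29.8% in Cxxc1-null libraries. The ratio of Brdt to Brd2 was therefore 6.72 and 2.71 in WT pachytene and 1.21 and 1.15 in WT meiosis II, and 6.60 and 7.29 and then 1.23 and 1.77 in Cxxc1-null cells. The low pachytene ratio of 2.71 is that of WT pachytene replicate 2, the library that stood apart. Brd3 held 7.55% to 25.5% of the sum, lowest in a WT pachytene and highest in a Cxxc1-null meiosis II library. These shares are a description with no test.

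**Figure D3:**
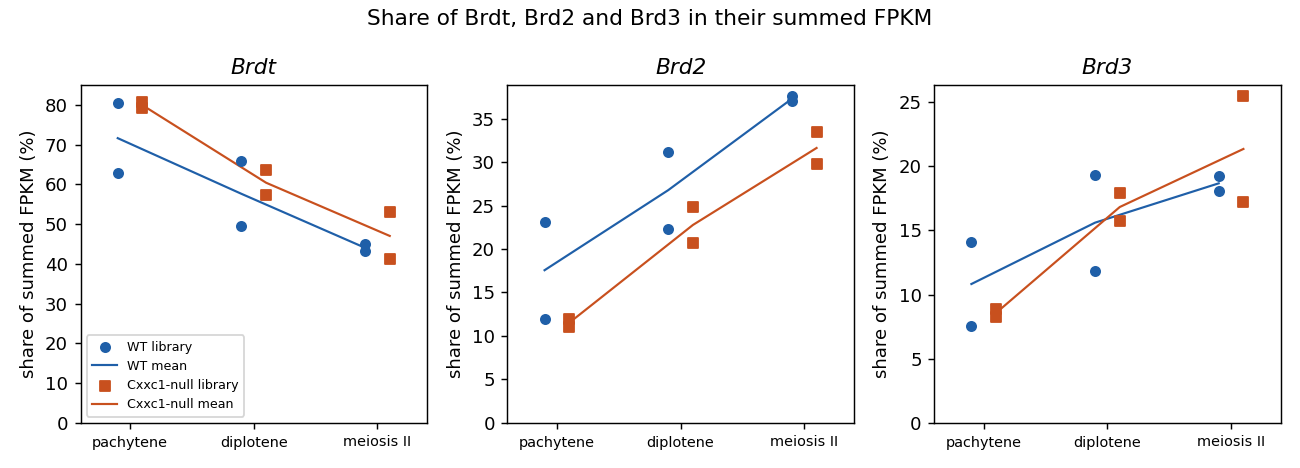
Share of Brdt, Brd2 and Brd3 in their summed FPKM (percent, a separate linear axis from 0 in each panel) by stage; blue circles are WT libraries, orange squares Cxxc1-null libraries, lines join means. The Brdt share is 62.8% or more in the 4 pachytene libraries and 52.9% or less in the 4 meiosis II libraries.

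Brwd1 had a lower FPKM than Brdt, Brd2, Brd3 and Kdm3a in every library and was higher in pachytene than later. It had 10.8 and 13.8 FPKM in WT pachytene, 9.62 and 7.10 in WT diplotene, and 7.03 and 4.94 in WT meiosis II. Cxxc1-null libraries had 11.7 and 11.4, then 6.86 and 5.61, then 5.73 and 4.49 FPKM. Both pachytene libraries of each genotype lay above its other 4 libraries. Brwd1 fell from pachytene to meiosis II by 0.94 ± 0.25 in WT and by 1.04 ± 0.25 in Cxxc1-null cells on the log2 scale (limma adjusted p = 0.00783 and 0.00501). The WT call was lost without WT meiosis II replicate 2 (-0.72, limma adjusted p = 0.0717), without both libraries that stood apart (limma adjusted p = 0.0521) and with short RNA genes (microRNA, small nucleolar and similar symbols) left out of the total (limma adjusted p = 0.0623). The Cxxc1-null step from pachytene to diplotene, -0.80 ± 0.25 (limma adjusted p = 0.0386), was lost in 9 of 22 alternatives, among them without any 1 of the 4 Cxxc1-null pachytene and diplotene libraries (limma adjusted p = 0.083 to 0.160). Between genotypes Brwd1 differed by -0.08, -0.36 and -0.18 in the successive stages, none past the test, and the pachytene value was 0.08 without WT pachytene replicate 2, the library that stood apart. Both WT libraries lay above both Cxxc1-null libraries in diplotene only.

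Chd5 was near 0 until meiosis II. It was 0.120 and 0.193 FPKM in WT pachytene, 0.171 and 0.331 in WT diplotene, and 7.998 and 5.44 in WT meiosis II. The Cxxc1-null libraries had 0.337 and 0.394 in pachytene, 0.234 and 0.889 in diplotene, and 3.07 and 4.00 in meiosis II. Every meiosis II library lay above every pachytene and diplotene library. The highest value before meiosis II, 0.889 FPKM, was in Cxxc1-null diplotene replicate 2, the library that stood apart. The gene entered the test through its meiosis II values, so a stage difference was built into its selection. It was 2.72 ± 0.24 in WT and 1.73 ± 0.24 in Cxxc1-null cells from pachytene to meiosis II (limma adjusted p = 1.47e-05 and 0.000225) and 2.61 ± 0.24 and 1.56 ± 0.24 from diplotene to meiosis II. These differences understate the change of a gene this low, since 1 FPKM is added before the log. As a ratio of means, the pachytene to meiosis II change was 42.9-fold in WT and 9.67-fold in Cxxc1-null cells. Those ratios divide by pachytene means near 0 (WT 0.156, Cxxc1-null 0.366 FPKM). Their sizes, and the gap between them, are therefore not resolved.

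In meiosis II Chd5 averaged 3.54 ± 0.66 (SD, n = 2) FPKM in Cxxc1-null and 6.72 ± 1.81 (SD, n = 2) FPKM in WT cells, 52.6% of the WT level, with no overlap. The log2 difference of -0.75 ± 0.24 had an unadjusted p of 0.0107 and a limma adjusted p of 0.0768, so it did not pass the test; it passed under quantile normalization (-0.76, limma adjusted p = 0.0400). In the same libraries the 9 round spermatid markers summed to 7433 and 10430 FPKM in WT and 2181 and 4564 FPKM in Cxxc1-null cells, but without Tnp1, Tnp2, Prm1 and Prm2 the genotypes overlapped (1413 and 1070 against 1059 and 1667 FPKM). The 5 meiotic division markers summed to 922 and 757 FPKM in WT and 670 and 505 FPKM in Cxxc1-null cells. Their part in the Chd5 difference was not tested. In libraries of sorted cells, fewer cells of a type and less RNA per cell cannot be told apart. In pachytene the order was the reverse, with both Cxxc1-null libraries above both WT libraries, at levels under 0.4 FPKM and a difference of 0.24 ± 0.24 that did not pass the test. The 5 spermatid markers other than Tnp1, Tnp2, Prm1 and Prm2 had that order there too. They summed to 169 and 180 FPKM in Cxxc1-null and 67.0 and 53.2 FPKM in WT pachytene, and their part was not tested.

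Kdm3a, the H3K9 demethylase gene, was second to Brdt in the 4 pachytene libraries and was lower at later stages. It had 66.5 and 67.5 FPKM in WT pachytene, 60.3 and 50.3 in WT diplotene, and 39.6 and 30.3 in WT meiosis II. Cxxc1-null libraries had 51.8 and 65.9, then 47.8 and 45.8, then 28.2 and 19.3 FPKM. Both WT libraries lay above both Cxxc1-null libraries at each stage, narrowly in pachytene. Kdm3a fell from pachytene to meiosis II by 0.93 ± 0.24 in WT and 1.29 ± 0.24 in Cxxc1-null cells on the log2 scale (limma adjusted p = 0.00599 and 0.00113), to 52.1% and 40.4% of the pachytene mean. The WT call was lost without WT meiosis II replicate 2 (-0.74, limma adjusted p = 0.0548) and with short RNA genes left out (-0.72, limma adjusted p = 0.0541). From diplotene to meiosis II it fell by 0.65 ± 0.24 in WT and 0.97 ± 0.24 in Cxxc1-null cells (limma adjusted p = 0.0457 and 0.00762). The WT step was lost in 12 of 22 alternatives, among them without any 1 of the 4 WT diplotene and meiosis II libraries (limma adjusted p = 0.0513 to 0.250) and without any 1 of the 4 Cxxc1-null pachytene and diplotene libraries (limma adjusted p = 0.0529 to 0.0634). The Cxxc1-null step was lost without Cxxc1-null meiosis II replicate 2 (-0.71, limma adjusted p = 0.0723).

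The Cxxc1-null mean of Kdm3a was 87.8% of WT in pachytene, 84.6% in diplotene and 68.0% in meiosis II. The log2 differences, -0.19 ± 0.24, -0.23 ± 0.24 and -0.55 ± 0.24, and their mean of -0.32 ± 0.14 did not pass the test (limma adjusted p = 0.832, 0.753, 0.176 and 0.133). The 95% interval of the mean over stages was -0.63 to -0.02. Leaving out 1 library in turn moved the pachytene difference between -0.37 and -0.02, the diplotene one between -0.36 and -0.10 and the meiosis II one between -0.81 and -0.29.

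**Figure D4:**
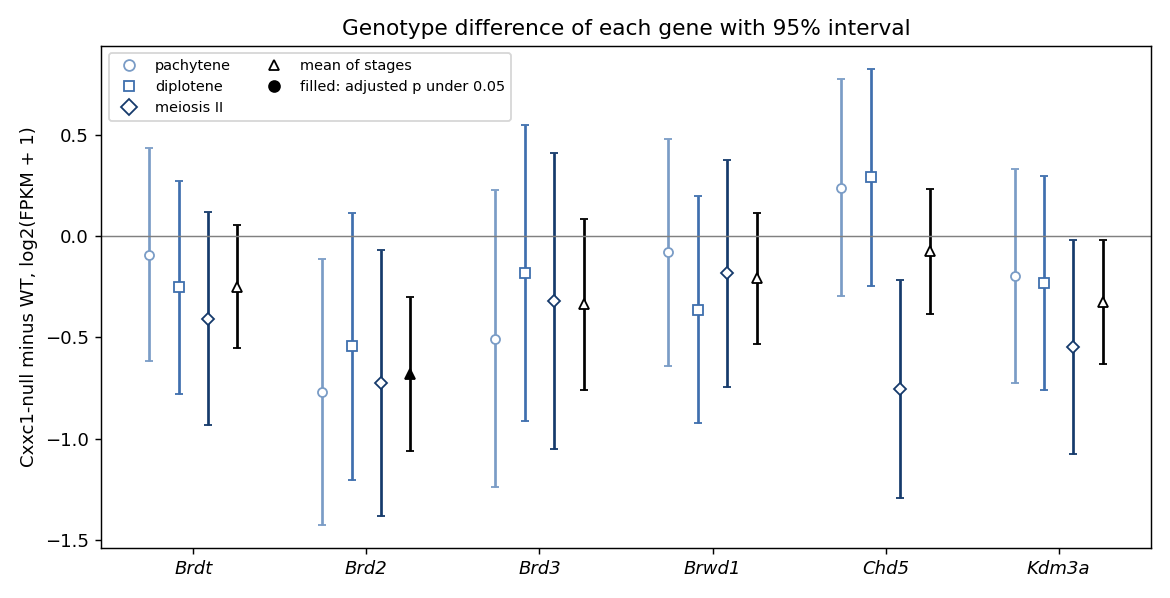
Genotype difference of each gene, Cxxc1-null minus WT, in log2(FPKM + 1), with its 95% limma interval; circles are pachytene, squares diplotene, diamonds meiosis II and triangles the mean of stages, filled where the limma adjusted p is under 0.05. Brd2 over the stages, at -0.68, is the filled point, and Chd5 is above 0 in pachytene and diplotene (in diplotene -0.02 without Cxxc1-null diplotene replicate 2) and below it in meiosis II.

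Across the set, genotype calls were few. Of the 6 genes, 0 were called in pachytene, diplotene or meiosis II, where limma called 0.355%, 0.787% and 10.5% of all genes tested. At an unadjusted p under 0.05 there were 1, 0 and 3 of the 6, against 10.7%, 13.5% and 26.1% of all genes. Over the stages 1 of 6 was called, against 16.7% of all genes in either direction and 5.13% lower. All 6 genes had a negative mean over stages, as did 43.4% of all genes, and the median of the 6 was -0.29 against 0.05 for all genes. The Chd5 mean was -0.07, and 0.24 with a pseudocount of 0.1. In meiosis II all 6 were negative as well, as were 48.2% of all genes, with a median of -0.48 against 0.02. The 7 spermatocyte markers had a median over the stages of -0.29 too, with 2 of 7 called lower, and their part in the differences of the 6 genes was not tested. Both WT libraries lay above both Cxxc1-null libraries in all 3 stages for 2 of the 6 genes, Brd2 and Kdm3a, as they did for 3.91% of all genes. Within a single stage this held for 13.3% of all genes in pachytene, 15.2% in diplotene and 26.4% in meiosis II.

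Stage calls were more numerous. From pachytene to meiosis II 5 of 6 were called in WT, where 65% of all genes were, and 6 of 6 in Cxxc1-null cells, where 62.1% of all genes were. In both genotypes Brd2, Brd3 and Chd5 rose and Brwd1 and Kdm3a fell, with Brdt falling in Cxxc1-null cells. Of all genes, 33.9% rose and 31.1% fell in WT, and 32.2% rose and 29.9% fell in Cxxc1-null cells. The direction of all 6 differences held in 22 of 22 alternatives in each genotype. Leaving out libraries could not change it, because within each genotype pachytene and meiosis II did not overlap in any of the 6 genes. From pachytene to diplotene 0 of 6 were called in WT (1 at an unadjusted p under 0.05; 26.5% of all genes called) and 2 of 6 in Cxxc1-null cells (29.3%). From diplotene to meiosis II 2 of 6 were called in WT (45%) and 2 of 6 in Cxxc1-null cells (44.1%), Chd5 and Kdm3a in both. The medians of all genes moved with the scaling: from diplotene to meiosis II in WT the median was 0.02 as deposited and -0.28 with a common median, and from pachytene to meiosis II in WT it was 0.07 as deposited and 0.25 with short RNA genes left out. Chd5 had to differ to be tested, and most genes were called over the whole span, so these counts are not read as particular to the 6 genes. The share of all genes whose stages did not overlap was not counted, so such separation is not read as particular either. The Sertoli marker sum was also higher in meiosis II, and its part in the stage differences was not tested.

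Whether the genotype difference itself changed from pachytene to meiosis II was tested as an interaction, which called 0 of the 6 genes (1 at an unadjusted p under 0.05, Chd5; 0.0309% of all genes called). An F test over the 3 stages also called 0 of 6 (1 at an unadjusted p under 0.05; 0.054% of all genes called). The interaction of Brd2 was 0.04 with a 95% interval of -0.89 to 0.97 (-0.41 without WT pachytene replicate 2) and that of Kdm3a -0.35 with an interval of -1.10 to 0.39.

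The families of the 6 genes gave a comparison list. Of 30 other bromodomain genes tested, 0 were called in pachytene or diplotene, 1 rose and 3 fell in the Cxxc1-null meiosis II libraries, where 10.5% of all genes were called, and the median was -0.17. Over the stages 1 rose and 4 fell, where 16.7% of all genes were called and 5.13% fell. Brd1, a scaffold subunit of histone acetyltransferase complexes, had 12.1 and 10.2 FPKM in WT and 3.44 and 3.56 FPKM in Cxxc1-null meiosis II and fell by 1.43 ± 0.22 on the log2 scale (limma adjusted p = 0.00429). Baz1a, the ACF1 subunit of ISWI remodellers, had 21.9 and 12.7 FPKM in WT and 5.52 and 5.99 FPKM in Cxxc1-null meiosis II and fell by 1.39 ± 0.25 (limma adjusted p = 0.00858).

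Baz2b, a bromodomain gene of the same family as Baz1a, fell there by 0.93 ± 0.19, and Atad2b, an AAA ATPase gene with a bromodomain, rose by 1.00 ± 0.19 (limma adjusted p = 0.0161 and 0.0118). In each of these 4 genes the genotypes did not overlap in meiosis II. The 4 were named for a small p between genotypes, so this separation largely follows from the choice and adds no separate support. Of all genes, 26.4% were separated there in the lower direction. The calls of Baz1a, Baz2b and Atad2b in meiosis II did not hold without some single meiosis II library: Baz1a had limma adjusted p of 0.0602, 0.0567 and 0.0541 without WT replicate 1, Cxxc1-null replicate 1 and Cxxc1-null replicate 2. Baz2b was lost without any of the 4 (limma adjusted p = 0.0817 to 0.0945), and Atad2b without WT replicate 2 or either Cxxc1-null replicate (limma adjusted p = 0.0623 to 0.0846). In a fit of the meiosis II libraries alone none of the 4 passed, Brd1 having a limma adjusted p of 0.0548.

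Of 10 other CHD and KDM3 family genes tested, Chd1, a remodeller that binds methylated H3K4, was the 1 called between genotypes. It was called in meiosis II and over the stages, where 10.5% and 16.7% of all genes were called. It had 4.10 and 3.45 FPKM in WT and 1.1 and 1.09 FPKM in Cxxc1-null meiosis II and fell by 1.19 ± 0.20 (limma adjusted p = 0.00767). That call was lost without WT meiosis II replicate 1 (limma adjusted p = 0.0627) and without either Cxxc1-null meiosis II replicate (0.0513 and 0.0599 as limma adjusted p). In a fit of the meiosis II libraries alone it did not pass either (limma adjusted p = 0.0558). From WT pachytene to meiosis II 7 of the 10 fell and 0 rose, where 31.1% of all genes fell and 33.9% rose, with a median of -0.77 against 0.07 for all genes.

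Of 12 partners of BET proteins, Ccnt2 was called in meiosis II (10.5% of all genes called) and Ccnt2 and Cdk9 over the stages (16.7% of all genes called), in opposite directions. Both encode subunits of the elongation kinase P-TEFb, whose other listed subunit gene, Ccnt1, was not called. Ccnt2, which encodes the cyclin T2 subunit, had 2.08 and 1.80 FPKM in WT and 6.01 and 4.49 FPKM in Cxxc1-null meiosis II and rose by 1.08 ± 0.23 (limma adjusted p = 0.0182). Cdk9, the kinase subunit, fell by 0.44 ± 0.13 over the stages (limma adjusted p = 0.0459). The meiosis II call of Ccnt2 was lost without any 1 of the 4 meiosis II libraries (limma adjusted p = 0.0596 to 0.110), in a fit of the meiosis II libraries alone (0.0815) and with short RNA genes left out (0.0555). Its call over the stages (0.50, limma adjusted p = 0.0304) was lost in 10 of 22 alternatives. The Cdk9 call was lost in 12 of 22 alternatives, among them without any 1 library other than WT pachytene replicate 1 and Cxxc1-null diplotene replicate 2 (limma adjusted p = 0.0629 to 0.117). The other 10 partners were not called in either contrast.

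The exchange of histones for transition proteins and then protamines is the process in which Brdt, Chd5, Brwd1 and Kdm3a are known to act. Of 15 genes of this process tested, 10 rose and 2 fell from pachytene to meiosis II in WT, where 33.9% of all genes rose and 31.1% fell. In Cxxc1-null cells 6 rose and 2 fell, where 32.2% of all genes rose and 29.9% fell. Between genotypes 0 were called within any stage. Tnp1 was 1136 and 1803 FPKM in WT meiosis II and 254 and 780.3 FPKM in Cxxc1-null meiosis II, and Tnp2 was 1246 and 1625 against 298 and 591 FPKM.

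Prm1 was 2213 and 3794 FPKM in WT and 337 and 999.5 FPKM in Cxxc1-null meiosis II, and Prm2 was 1424 and 2138 against 232 and 526 FPKM. In all 4 genes both WT libraries lay above both Cxxc1-null libraries, as they did at this stage for 26.4% of all genes. Among the 15 exchange genes tested, the genotype difference at this stage was negative in 10 and positive in 5. Their median was -0.32, against 0.02 for all genes. The meiosis II differences were -1.68 ± 0.74 for Tnp1, -1.76 ± 0.70 for Tnp2, -2.32 ± 0.78 for Prm1 and -2.32 ± 0.77 for Prm2, with limma adjusted p of 0.184, 0.140, 0.0913 and 0.0851, so none passed the test. Leaving out 1 library in turn moved them between -2.49 and -0.87 for Tnp1, -2.25 and -1.27 for Tnp2, -3.10 and -1.54 for Prm1 and -2.90 and -1.73 for Prm2.

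The 2 Cxxc1-null diplotene libraries differed widely in these genes, with 23.1 and 130.1 FPKM of Tnp1. Without Cxxc1-null diplotene replicate 2, the library that stood apart, the meiosis II differences of Tnp2, Prm1 and Prm2 passed (limma adjusted p = 0.0345, 0.0301 and 0.0196). Without Cxxc1-null diplotene replicate 1 they passed as well (limma adjusted p = 0.0348, 0.0304 and 0.0199). Prm1 and Prm2 also passed under quantile normalization (limma adjusted p = 0.0341 and 0.0374) and with short RNA genes left out (0.0492 for both), and Prm1 with the replicate number as a block (0.0492). Over the stages Prm2 fell by 1.60 ± 0.44 (limma adjusted p = 0.0349), a call that was lost with no expression filter (limma adjusted p = 0.119) and without 8 single libraries. These were the 4 pachytene libraries, WT diplotene replicate 2, both WT meiosis II replicates and Cxxc1-null meiosis II replicate 1 (limma adjusted p = 0.0547 to 0.0942). These 4 genes are also 4 of the 9 round spermatid markers, so their sum and these values are the same measurement in part.

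**Figure D5:**
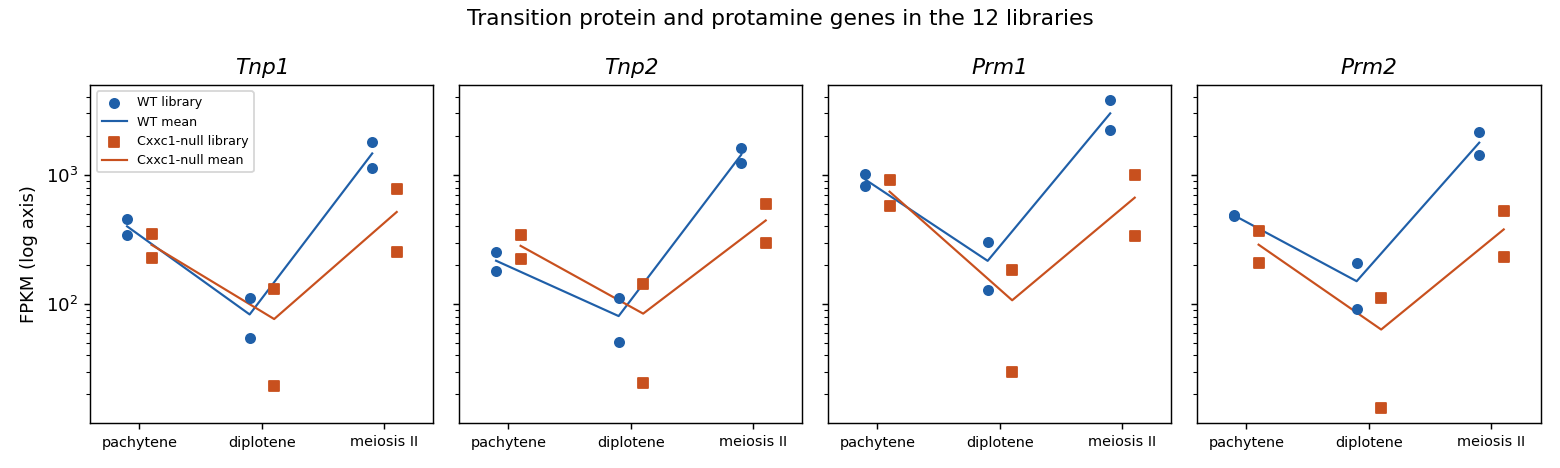
FPKM of Tnp1, Tnp2, Prm1 and Prm2 (logarithmic vertical axis) by stage; blue circles are WT libraries, orange squares Cxxc1-null libraries, lines join the means of 2 libraries. In meiosis II the WT libraries lie above the Cxxc1-null libraries in all 4 genes, and the 2 Cxxc1-null diplotene libraries lie far apart.

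The genes most like each of the 6 over the 12 libraries were taken from 7855 tested genes with a mean of at least 5 FPKM, by Pearson r of log2(FPKM + 1), as a description. For Brdt they were Glt8d1 (r = 0.93), 4921531P14Rik (0.92) and Mybl1 (0.91), the last a transcription factor gene of pachytene spermatocytes. Map1lc3a (0.98), Angel1 (0.97) and Tesk1 (0.97) were most like Brd2. Nup188, Gpr137 and Git1 (each 0.98) were most like Brd3. Brwd1 was followed most closely by Ifnar1, Appl2 and Ddx10 (r = 0.959, 0.955 and 0.953). Chd5 had the closest neighbours, Adam26a (r = 0.996), a sperm ADAM protease gene, Pla2g10 (0.994) and Zdhhc19 (0.994). Kdm3a had Khdrbs1 (0.98) and Ptplad1 (0.97) among its closest. The 12 points share 3 stages, so genes with 1 stage pattern have a high r.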

How the data were processed

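The authors deposited FPKM values for 23235 genes in 12 RNA libraries; the submitters' processing notes list mm9, Cufflinks 2.2.1 and TopHat2 2.1.1, without their roles. FPKM are not counts, so no count test was run and depth is unknown. The 12956 genes reaching 1 FPKM in 2 or more libraries were fitted as log2(FPKM + 1) with limma 3.58.1 (R 4.3.3), using a mean per group, 6 residual degrees of freedom and variances that follow the mean, and p-values were adjusted by Benjamini-Hochberg over all these genes at 0.05. Differences are given with the SE and levels as single libraries or mean ± SD. The genes and lists were chosen with earlier results of these data known. Named are the 6 genes, Cxxc1, up to 4 genes per list with the smallest p among those called between genotypes, Tnp1, Tnp2, Prm1 and Prm2, and the 3 genes most like each of the 6, of which 1 is not reported here. Of the listed genes, Kat8 and the markers Tex33 and Rhox5 were not found by symbol, and Brwd3, Taf1, Chd7, Hr and 13 markers did not pass the filter. Alternatives were another pseudocount, filter, scaling, fit, a replicate block and leaving out libraries. Promoters are RefSeq's (GRCm38.p6), matched by symbol for 6 of 6 genes.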

Additional observations from a re-analysis of the deposited data

Results flagged for a closer look

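Chd5 stood out because its genotype difference had opposite directions at different stages. In pachytene both Cxxc1-null libraries (0.337 and 0.394 FPKM) lay above both WT libraries (0.120 and 0.193 FPKM), and in meiosis II both Cxxc1-null libraries (3.07 and 4.00 FPKM) lay below both WT libraries (7.998 and 5.44 FPKM). Subtracting the pachytene difference from that in meiosis II gave -0.99 ± 0.34 on the log2(FPKM + 1) scale, with an unadjusted p of 0.0154 and a limma adjusted p of 0.273, so it did not pass the test over all genes. It was negative in 22 of 22 alternatives, from -1.77 to -0.75, with limma adjusted p from 0.219 to 0.583. Leaving out libraries could not change that sign, because the gene was flagged for genotypes that did not overlap at either stage. The constant sign therefore adds no separate support. The 5 round spermatid markers other than Tnp1, Tnp2, Prm1 and Prm2 were also higher in Cxxc1-null pachytene, with summed FPKM of 169 and 180 against 67.0 and 53.2 in WT.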

How the results depend on the processing

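Each value was recomputed under 22 alternatives, or fewer where a fit could not be made. Of 2066 single-gene values under an alternative, 1881 kept their direction and side of the threshold, 121 lost and 39 gained a call, and 25 changed direction. The genes called over the stages numbered 0 with no expression filter and 0 with libraries joined by genotype and replicate number, and 0 to 1 when each library was left out in turn. In WT from diplotene to meiosis II the number was 1 with no filter, 1 with short RNA genes left out and 1 in a separate fit (1 to 3 leaving out libraries); in WT from pachytene to meiosis II it was 3 with short RNA genes left out (2 to 5). In WT from pachytene to diplotene it was 1 with a common median and 1 without both libraries that stood apart (0 to 2), and in Cxxc1-null cells 0 with no filter and 0 without both (0 to 3). In Cxxc1-null cells from diplotene to meiosis II it was 1 to 2 leaving out libraries, and the meiosis II genotype count was 1 under quantile normalization. The cause was not tested.

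Changes of direction were among differences that did not pass the test. The Chd5 mean over stages was 0.24 with a pseudocount of 0.1 and -0.177 to 0.0279 leaving out libraries. Without both libraries that stood apart, Brwd1 in pachytene was 0.0819, Chd5 in diplotene -0.0167, Chd5 from Cxxc1-null pachytene to diplotene -0.15, and the interaction of Brd2 was -0.41 and that of Brd3 -0.24. Leaving out 1 library in turn gave -0.274 to 0.0920 for Brdt and -0.240 to 0.0819 for Brwd1 in pachytene, -0.49 to 0.13 for Brd3 and -0.0167 to 0.598 for Chd5 in diplotene, and -0.401 to 0.0333 for Brwd1 in meiosis II. It gave -0.455 to 0.0237 for Brdt from WT diplotene to meiosis II and -0.15 to 0.47 for Chd5 from Cxxc1-null pachytene to diplotene. The interactions ranged from -0.41 to 0.50 for Brd2, -0.24 to 0.61 for Brd3 and -0.32 to 0.11 for Brwd1.

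With the replicate number as a block, the Brd2 difference over stages was -0.68 (limma adjusted p = 0.0112) and the Cxxc1-null count from pachytene to diplotene was 3 instead of 2, with Brd3 added. The deviations of same-numbered libraries had correlations of 0.116 to 0.42 in all 6 pairs of stages within a genotype and -0.253 to 0.321 in the 9 pairs between genotypes, 5 of them over 0.1. The labels do not say what a replicate number stands for. The test over stages treats same-numbered libraries of a genotype as independent, and joined by number the Brd2 call was lost (limma adjusted p = 0.159). With 2 libraries a group and no fragment counts, differences of low genes such as Chd5 before meiosis II are not resolved.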

Other observations

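Phip and Jmjd1c fell from pachytene to meiosis II, the direction of their relatives Brwd1 and Kdm3a; the size of the fall was not compared between relatives. Phip, a relative of Brwd1, had 5.92 and 5.07 FPKM in WT pachytene and 0.525 and 0.451 FPKM in WT meiosis II and fell by 2.12 ± 0.19 on the log2(FPKM + 1) scale (limma adjusted p = 1.36e-05), and by 1.69 ± 0.19 in Cxxc1-null cells (limma adjusted p = 6.24e-05). Jmjd1c, a relative of Kdm3a, had 18.1 FPKM in both WT pachytene libraries and 5.90 and 3.73 FPKM in WT meiosis II and fell by 1.74 ± 0.22 (limma adjusted p = 0.000104). Kdm3b, the other KDM3 gene tested, had 3.23 and 3.04 FPKM in WT pachytene and 0.319 and 0.411 FPKM already in WT diplotene. Brwd3, another relative of Brwd1, went the other way at levels that did not pass the filter. It had 0 and 0.0775 FPKM in WT pachytene and 0.518 and 0.407 FPKM in WT meiosis II. The calls of Phip and Jmjd1c from pachytene to meiosis II held in 22 of 22 alternatives in both genotypes. These genes were chosen after their values were seen.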
